A study of Oryctolagus cuniculus with 24 samples.

Results

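The genes described here are the translation initiation factors and the aminoacyl-tRNA synthetases that could be named on a rabbit microarray. A gene was included when the symbol of its probe, read from the file, the RefSeq accession or the gene number, began with EIF or was that of an aminoacyl-tRNA synthetase. This gave 64 of the 28863 genes measured, of which 36 were initiation factors and 28 were synthetases, and the synthetases comprised 16 cytosolic and 12 mitochondrial enzymes. They were represented by 150 probes, with 1 probe for 32 genes and more than 1 for the other 32, and the probes of a gene were averaged.

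PBMCs, the mononuclear cells of the blood, were obtained from 4 adult New Zealand White rabbits (all females, rabbits 1, 2, 4 and 5) and cultured for 4 h (T4) or 24 h (T24). Cultures were mock-stimulated, stimulated with LPS at 1 µg/mL, or stimulated with a mixture of PMA at 10 ng/mL and ionomycin at 1 µg/mL, which gave 6 groups with each rabbit present in each group. LPS is a component of the outer membrane of Gram-negative bacteria that is sensed mainly by monocytes. PMA switches on protein kinase C and ionomycin lets calcium into the cell, and together they activate T cells without the antigen receptor. All groups shared RPMI medium with heat-inactivated serum, L-glutamine and antibiotics. RNA of each culture was hybridised to a one-colour array of its own, 24 in all, so that every value is an average over the mixed cells of a culture, and fewer cells of a type cannot be told apart from less RNA per cell.

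Translation of most mRNAs starts when eIF4E binds the cap and, with the scaffold eIF4G and the helicase eIF4A, recruits the small ribosomal subunit, on which eIF3 is assembled. The initiator tRNA is brought by eIF2 bound to GTP, and eIF1 keeps the scanning complex selective for the start codon. After each round eIF2 is recharged with GTP by the exchange factor eIF2B, and phosphorylation of its alpha subunit by any of the kinases HRI, PKR, PERK or GCN2 (EIF2AK1 to EIF2AK4) blocks this step and slows initiation. Aminoacyl-tRNA synthetases attach each amino acid to its tRNA, and most cells use separate nuclear genes for the cytosolic enzyme and for the enzyme imported into mitochondria. Lymphocytes that leave the resting state are known to increase protein synthesis strongly before they divide.

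Since a synthetase and its mitochondrial counterpart carry similar names, the probes of the genes on which the results turn were compared. Each line gives 30 bases of the 60-base probe as deposited, with the longest run that it shares with the probe of the partner gene in capitals.
NARS1: tcgatgcgtatcTGGGATagtgaagaaatg
NARS2: TGGGATttgaacgctacctgcagtgcatct
RARS1: actgtgtggaAAAAGACAGacagactggga
RARS2: caaaacactgcacatAAAAGACAGtcctcc
IARS1: agagtttgaatATGAAGAcagtgtatgttt
IARS2: ttagaaggtggtgatattcATGAAGAgtct
The asparaginyl pair (NARS1 and NARS2) shared 6 bases, the arginyl pair 9 and the isoleucyl pair 7, and across all members the longest run common to probes of different genes was 13 bases. For comparison, the probes of FARS2 and EIF2B3 are shown with the run they share with the nearest probe of another member, EIF2B1 and EIF2A respectively, which was 8 bases in both.
FARS2: ccgaacgattggcggagacctgGTGGAAAA
EIF2B3: cttctcatgaaCTCAGTCAccgtggaggaa
On the oryCun2 build named in the file headers, the NARS1 probe lies at chr9:98140238-98140297 on the minus strand, NARS2 at chr1:138323039-138323098 on the plus strand and IARS1 at chr1:70067643-70067702 on the minus strand, each as wide as the probe. Those of RARS1 (chr3:49830706-49840183, plus), RARS2 (chr12:74331089-74331925, minus), IARS2 (chr16:52914716-52919879, minus) and EIF2B3 (chr13:121763710-121779568, plus) are wider than the probe, so that the probe is split over the interval, as it would be across an intron. No position was given for the FARS2 probe. Of the 150 probes 129 had a position and 56 of these were wider than 60 bases. Some probes of a gene are shifted by 1 base, as both probes of NARS1 are, so that probes of a gene were not counted as independent measurements.

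The level of a gene is given as the log2 median spot signal minus the median of the array. A spot was well above background when the scanner software marked it so, which held for 51.4 to 62.3% of the non-control spots of an array. Of the 64 members, 55 were well above background on 24 of 24 arrays, and 3 (EIF4E3, EIF4ENIF1 and LARS2) on fewer than 12. The PMA-Ionomycin T4 array of rabbit 2 stood apart in its group, with 52.6% of spots well above background against 59.0 to 60.0% in the other 3 rabbits, and the lowest share, 51.4%, was that of the LPS T4 array of rabbit 4. T cell genes such as CD2 and LCK, B cell genes such as CD79B and MS4A1 and monocyte genes such as CD14 and CSF1R were measured in the mock-stimulated cultures. In the following, 4 levels given in a row are those of rabbits 1, 2, 4 and 5, differences are on the log2 scale with the standard error of the fit, n is 4 rabbits per group, and a gene was called DE when its limma p adjusted over all 28863 genes was under 0.05.

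PMA-Ionomycin raised the transcripts of much of this set at both times. At T4, 26 members were higher and 5 lower than in mock-stimulated PBMCs of the same time (48.4% DE), where 22.8% of all genes were DE, or 40.1% of the 15451 genes detected, that is, well above background in all 4 rabbits of a group compared. Among all genes 13.4% were higher and 9.35% lower, and among those detected 23.5% and 16.6%. At T24, 35 were higher and 5 lower (62.5%), beside 33.6% of all genes (22.1% higher, 11.5% lower) and 55.3% of those detected (37.2 and 18.1%). With the rabbit as a block all calls at T4 were kept and EIF3E (adjusted p = 0.0467) and WARS2 (adjusted p = 0.0444) also rose. The median difference of the members was 0.44 at T4 and 0.77 at T24, whereas that of all genes was 0.05 and 0.03 and that of those detected 0.05 and 0.18.

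Per rabbit, the median difference over the members was 0.38, 0.13, 0.75 and 0.41 at T4 and 0.85, 0.78, 0.84 and 0.67 at T24. It was above 0 in all 4 rabbits at both times, with rabbit 2 the lowest at T4. Without the PMA-Ionomycin T4 array of rabbit 2, 33 members rose and 5 fell at T4, all 31 calls were kept and the median was 0.64. Leaving out all arrays of a rabbit gave 23 to 31 calls, the fewest without rabbit 4 (18 rose and 5 fell, median 0.34). At T24 the median of the members was 0.39 with quantile normalization and 0.34 with normexp background correction and quantile normalization.

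**Figure D1:**
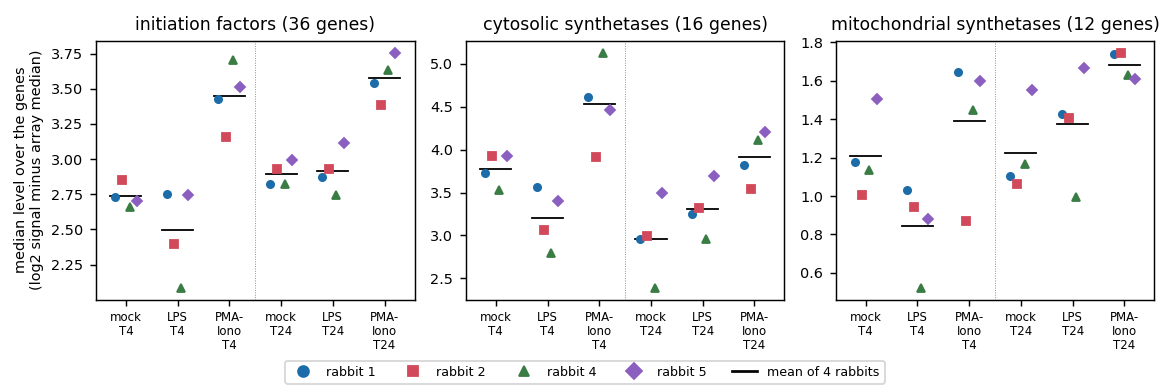
Median level over the genes of each class on each array (y axis, log2 signal minus the array median) in the 6 groups (x axis), with 1 point per rabbit. After PMA-Ionomycin the cytosolic synthetases reached 3.92 to 5.13 at T4, with rabbit 2 the lowest, and 3.54 to 4.20 at T24. In mock-stimulated cultures they went from 3.53 to 3.93 at T4 down to 2.39 to 3.49 at T24.

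Combining both times, 19 members rose at T4 and T24, 7 rose at T4 only by the test, 14 at T24 only, and 16 were DE at neither. A further 2 genes (FARS2 and RARS2) fell at T4 and rose at T24, EIF2AK3 and EIF2AK4 fell at both, EIF2AK2 fell at T4, and EARS2, EIF4E3 and EIF4EBP2 fell at T24. The 5 genes that fell at T4 thus comprised 3 of the 4 kinases of eIF2 alpha and 2 mitochondrial synthetases.

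**Figure D2:**
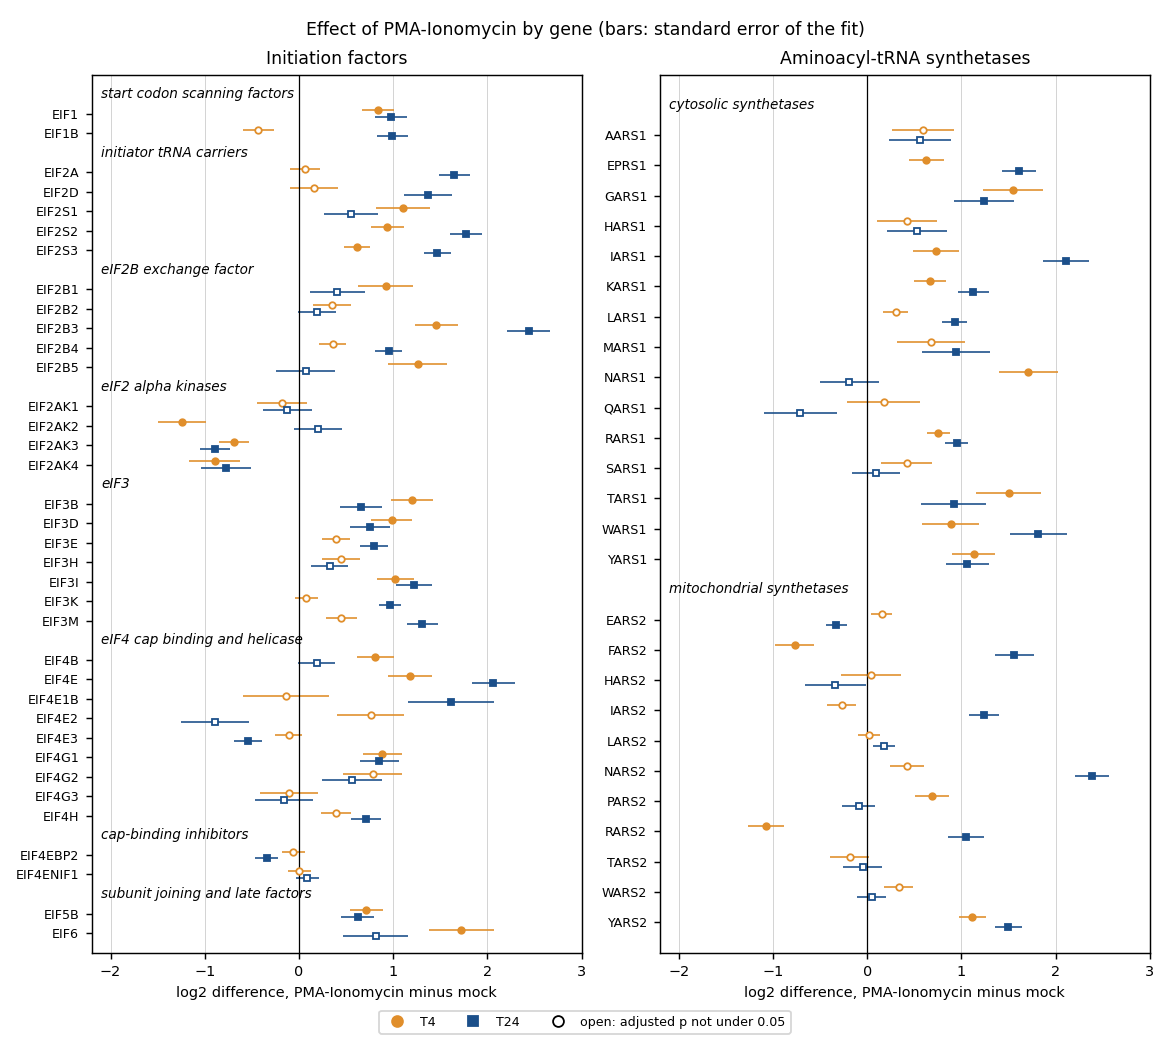
Log2 difference between PMA-Ionomycin-stimulated and mock-stimulated PBMCs for the members by gene at T4 (circles) and T24 (squares), grouped by role, with bars for the standard error of the fit. Filled symbols mark an adjusted p under 0.05; the largest rise was that of EIF2B3 at T24 (2.44) and the largest fall that of EIF2AK2 at T4 (-1.24).

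Among the factors that carry the initiator tRNA, the 3 subunits of eIF2 rose at T4, while the beta (EIF2S2) and gamma (EIF2S3) subunits and the alternative carriers EIF2A and EIF2D rose at T24. The level of EIF2S2 was 6.65, 6.62, 6.29 and 5.96 in mock T4 cultures and 7.21, 7.21, 7.59 and 7.26 after PMA-Ionomycin, with no overlap, a difference of 0.94 ± 0.17 (adjusted p = 0.000186). At T24 it was 5.04, 5.11, 5.20 and 4.98 against 6.99, 6.98, 6.79 and 6.65, which differed by 1.77 ± 0.17 (adjusted p = 1.26e-08) and by more than at T4 (interaction 0.83 ± 0.24, adjusted p = 0.0133). The mock level of EIF2S2 was itself lower at T24 than at T4, by a log2 difference of -1.30 ± 0.17 (adjusted p = 8.85e-06).

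EIF2S3 went from 3.20, 2.82, 2.77 and 2.58 to 3.47, 3.35, 3.47 and 3.55 at T4 (0.61 ± 0.14, adjusted p = 0.00189). At T24 its levels were 3.16, 3.36, 3.33 and 3.1 against 4.92, 4.94, 4.44 and 4.52 (1.47 ± 0.14, adjusted p = 1.11e-08). Both sets of values were free of overlap, and the mock levels of EIF2S3 at the 2 times did not pass the test (0.39 ± 0.14, adjusted p = 0.0756). The alpha subunit EIF2S1, which is the phosphorylated one, went from 2.56, 3.26, 2.54 and 3.22 to 3.74, 3.38, 4.64 and 4.24 at T4 (1.10 ± 0.29, adjusted p = 0.0059), with the lowest stimulated culture, that of rabbit 2, just above the highest mock. The call for EIF2S1 was lost without rabbit 4 (0.77, adjusted p = 0.134), and at T24 its difference was 0.55 ± 0.29 (adjusted p = 0.168). EIF2A, a carrier that does not need eIF2, differed by 0.06 ± 0.16 at T4 (adjusted p = 0.894). Its levels at T24 were 2.73, 2.81, 3.05 and 3.0 in mock cultures and 4.54, 4.84, 4.38 and 4.43 after PMA-Ionomycin (1.65 ± 0.16, adjusted p = 1.78e-08), and the effect grew with time by 1.58 ± 0.23 (adjusted p = 1.42e-05).

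Of the 5 subunits of eIF2B, EIF2B1, EIF2B3 and EIF2B5 rose at T4, EIF2B3 and EIF2B4 rose at T24, and EIF2B2 was DE at neither time after PMA-Ionomycin. EIF2B3, the gamma subunit, which belongs to the catalytic part of the complex, had the largest rise of any member at T24. Its levels were 1.11, 0.94, 0.94 and 1.27 in mock and 2.71, 1.67, 2.69 and 3.02 in stimulated T4 cultures (1.46 ± 0.23, adjusted p = 3.16e-05). At T24 they were 1.44, 1.28, 1.27 and 1.61 against 4.26, 3.68, 3.66 and 3.75 (2.44 ± 0.23, 5.41-fold, adjusted p = 7.61e-09). The effect on EIF2B3 was larger at T24 (interaction 0.98 ± 0.32, adjusted p = 0.0293). The epsilon subunit EIF2B5, which carries the exchange activity, rose from 0.76, 1.14, 1.40 and 2.01 to 2.71, 1.99, 3.02 and 2.63 at T4 (1.26 ± 0.31, adjusted p = 0.00405), with rabbit 2 after stimulation below rabbit 5 in mock, and the call was lost without rabbit 1 (1.03, adjusted p = 0.0824). At T24 its difference was 0.07 ± 0.31 (adjusted p = 0.931), and the change with time was -1.19 ± 0.44 (adjusted p = 0.0588, and 0.0147 with the rabbit as a block).

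Of the 4 kinases that phosphorylate eIF2 alpha, 3 fell at T4 and none rose at either time. EIF2AK2, the PKR kinase that responds to double-stranded RNA, fell from 2.67, 1.75, 1.84 and 1.77 to 1.25, 0.69, 1.06 and 0.08 at T4 (-1.24 ± 0.26, adjusted p = 0.000696). At T24 its levels were 1.92, 1.50, 1.39 and 0.56 in mock and 1.63, 1.35, 1.61 and 1.60 after PMA-Ionomycin (0.20 ± 0.26, adjusted p = 0.662), so that the groups overlapped and the effect differed between times (interaction 1.44 ± 0.36, adjusted p = 0.00437). EIF2AK2 is known as an interferon-induced gene. Of 10 interferon-related genes measured, 4 fell and 2 rose at T4 (60.0% DE, beside 22.8% of all genes and 40.1% of those detected). At T24, 2 rose (20.0%, beside 33.6 and 55.3%), and 7 had a more positive effect than at T4 (70.0%, beside 22.5 and 37.3%). The 4 that fell at T4 were CXCL10 (-2.54), IFIT2 (-1.28), IFIT3 (-2.61) and IFIT5 (-1.40), whereas IFNG (1.19) and IRF1 (1.48) rose. A link of these genes to the course of EIF2AK2 was not tested.

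EIF2AK3, the PERK kinase of the endoplasmic reticulum, went from 0.24, 0.05, 0.31 and 0.75 to -0.36, -0.41, -0.36 and -0.28 at T4 (-0.69 ± 0.16, adjusted p = 0.00207). In the T24 cultures stimulated with PMA-Ionomycin it was not well above background on any array, and it was at least 1.86-fold lower there than in mock (adjusted p = 8.46e-05). A bound for a gene without a stimulated level above background sets the mean of the mock group against the mean, per array, of the higher of the lowest signal well above background and the signal of the gene itself. EIF2AK4, the GCN2 kinase that responds to uncharged tRNA, went from 1.66, 1.32, 1.29 and 1.87 to 0.61, 0.53, 0.73 and 0.68 at T4 (-0.90 ± 0.27, adjusted p = 0.0156). Its T24 levels were 1.57, 1.33, 1.18 and 1.50 in mock and 1.44, 0.30, 0.51 and 0.23 in stimulated cultures (-0.77 ± 0.27, adjusted p = 0.0273), where rabbit 1 after stimulation lay within the mock values. The calls of EIF2AK4 were lost without rabbit 2 (adjusted p = 0.0576 at T4 and 0.139 at T24) and without rabbit 5 (0.0698 and 0.152), and within slide 1 its T24 difference was 0.10. EIF2AK1, the heme-regulated kinase HRI, differed by -0.18 ± 0.26 at T4 (adjusted p = 0.786) and -0.12 ± 0.26 at T24 (adjusted p = 0.834).

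**Figure D3:**
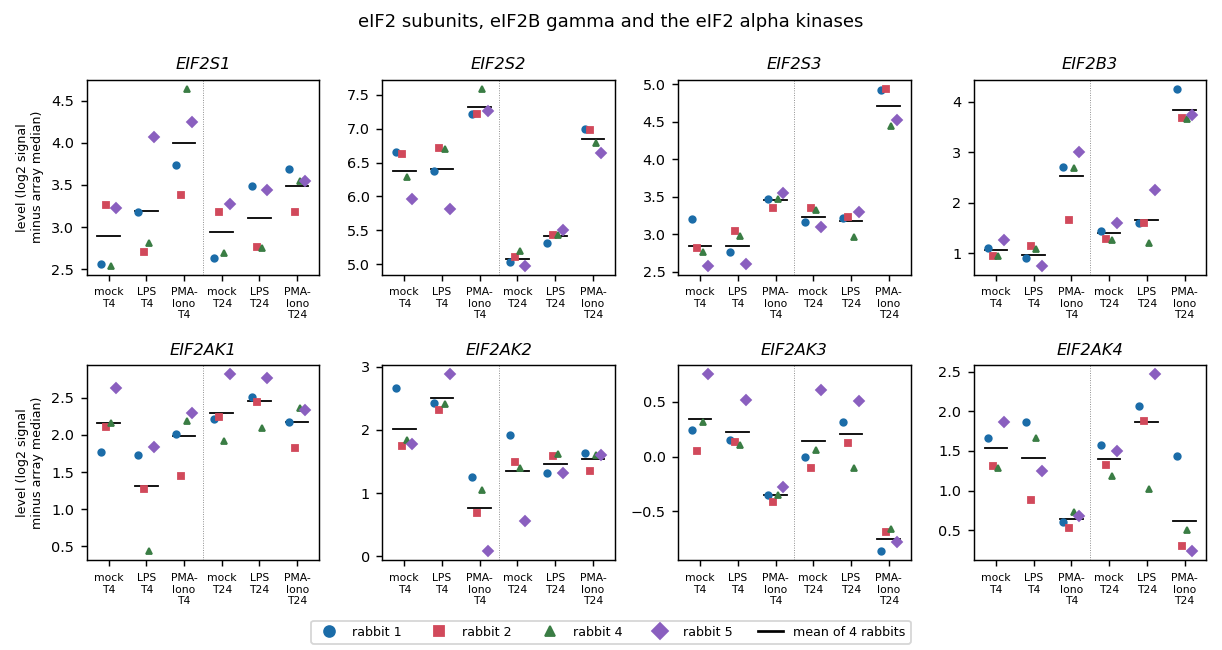
Levels (y axis, log2 signal minus the array median; the axes differ between genes) of the eIF2 subunits, EIF2B3 and the 4 eIF2 alpha kinases in the 6 groups (x axis), with 1 point per rabbit and a line at the mean. At T4 the PMA-Ionomycin cultures lie below all mock cultures for EIF2AK2, EIF2AK3 and EIF2AK4 and above them for the 3 eIF2 subunits and EIF2B3.

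Both start codon factors measured had risen by T24. EIF1 rose at T4 (0.84 ± 0.17, adjusted p = 0.000607) and T24 (0.98 ± 0.17, adjusted p = 6.24e-05), and its mock level fell with time in culture (-1.01 ± 0.17, adjusted p = 0.000198). EIF1B rose at T24 (0.99 ± 0.17, adjusted p = 3.73e-05), and its difference at T4 was -0.43 ± 0.17 (adjusted p = 0.0642).

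Of the 7 subunits of eIF3, EIF3B, EIF3D and EIF3I rose at both times, EIF3E, EIF3K and EIF3M rose at T24, and EIF3H was DE at neither. The differences of the 7 lay between 0.08 and 1.20 at T4 and between 0.32 and 1.31 at T24, all above 0. The 7 probes of EIF3I taken singly differed by 0.77 to 1.82 at T24, and 3 of them were DE. EIF3B, a core scaffold subunit, went from 1.87, 2.21, 2.22 and 2.28 to 3.46, 2.70, 3.74 and 3.48 at T4 (1.20 ± 0.22, adjusted p = 0.000232), with no overlap. The T24 difference of EIF3B was 0.66 ± 0.22 (adjusted p = 0.0233). EIF3M had the larger T24 effect, from 6.72, 7.16, 7.32 and 7.02 to 8.51, 8.47, 8.25 and 8.23 (1.31 ± 0.16, adjusted p = 6.65e-07), after 0.45 ± 0.16 at T4 (adjusted p = 0.0513).

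Of the 9 eIF4 genes, EIF4B, EIF4E and EIF4G1 rose at T4, EIF4E, EIF4E1B, EIF4G1 and EIF4H rose at T24, and EIF4E3 fell at T24. EIF4E, the cap-binding protein, went from 5.53, 5.59, 4.94 and 4.38 to 6.46, 6.46, 6.01 and 6.21 at T4 (1.18 ± 0.23, adjusted p = 0.000381). At T24 it went from 5.09, 5.11, 5.09 and 4.14 to 7.17, 6.98, 6.79 and 6.74 (2.06 ± 0.23, 4.17-fold, adjusted p = 1.17e-07). Neither time had an overlap, and the effect differed between times with the rabbit as a block (0.88 ± 0.32, adjusted p = 0.0532 without the block and 0.00763 with it). The scaffold EIF4G1 rose by 0.89 ± 0.21 at T4 (adjusted p = 0.00212) and by 0.85 ± 0.21 at T24 (adjusted p = 0.00189). The brightest of its 6 probes was left out as an outlier spot on the mock T4 array of rabbit 4, so that the gene mean there lacks it, and with outlier spots kept the T4 difference of EIF4G1 was 0.76 (adjusted p = 0.00483). The probes taken singly differed by 0.74 to 0.80 at T4, and the T24 call was lost with normexp and quantile normalization (0.44, adjusted p = 0.0571).

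Relatives of EIF4E were measured too. EIF4E2, a cap-binding homologue that is linked to translational repression, had mock levels of 2.87, 3.59, 3.46 and 4.11 and stimulated levels of 4.42, 3.36, 4.87 and 4.41 at T4 (0.76 ± 0.36, adjusted p = 0.151). At T24 its levels were 4.36, 4.16, 3.66 and 4.59 against 2.90, 2.93, 3.61 and 3.77 (-0.89 ± 0.36, adjusted p = 0.0588, and 0.0298 with the rabbit as a block). The effect on EIF4E2 changed with time by -1.65 ± 0.50 (adjusted p = 0.019), a call that was lost without rabbit 1 (-1.20, adjusted p = 0.21). EIF4E3 was not well above background in T24 cultures stimulated with PMA-Ionomycin and was so on 3 of 4 mock arrays, where it was at least 1.44-fold higher (adjusted p = 0.00516). That call was lost without rabbit 1 (adjusted p = 0.061) and without rabbit 4 (adjusted p = 0.113). EIF4E1B had levels of 0.14, 1.42, 0.36 and -0.89 in mock and 0.99, 1.73, 2.53 and 2.23 in stimulated T24 cultures (1.61 ± 0.46, adjusted p = 0.00754), with an overlap between rabbit 2 in mock and rabbit 1 after stimulation, and the call was lost without rabbit 5 (1.11, adjusted p = 0.114). EIF4EBP2, which binds and holds back eIF4E, went from 0.80, 0.57, 0.91 and 0.89 to 0.54, 0.66, 0.20 and 0.40 at T24 (-0.34 ± 0.12, adjusted p = 0.0301), with an overlap in rabbit 2. Taken singly, 1 of its 5 probes was DE. EIF4ENIF1, which moves eIF4E into the nucleus, was DE at neither time.

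EIF6, which keeps the large ribosomal subunit from joining too early, had the largest rise of any member at T4. It went from 3.97, 4.60, 4.49 and 5.03 to 6.25, 5.46, 6.71 and 6.55 (1.72 ± 0.35, 3.3-fold, adjusted p = 0.000549), and all stimulated cultures lay above all mock cultures. At T24 the difference was 0.81 ± 0.35 (adjusted p = 0.0773, and 0.0253 with the rabbit as a block). EIF5B, the GTPase of subunit joining, rose by 0.71 at T4 and by 0.62 at T24.

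Of the 16 cytosolic synthetases, 9 rose and none fell at T4 (median 0.67), and 11 rose and none fell at T24 (median 0.94). EPRS1, GARS1, IARS1, KARS1, RARS1, TARS1, WARS1 and YARS1 rose at both times, NARS1 at T4, and LARS1 and MARS1 were among those that rose at T24. AARS1, HARS1, QARS1 and SARS1 were DE at neither. The SARS1 value of the PMA-Ionomycin T4 array of rabbit 1 was marked as an outlier spot, so that its fit used 3 stimulated cultures at T4. GARS1, which is used in the cytosol and in mitochondria, went from 5.06, 5.37, 5.27 and 5.65 to 6.89, 6.11, 7.59 and 6.95 at T4 (1.54 ± 0.32, adjusted p = 0.000702) and differed by 1.24 ± 0.32 at T24 (adjusted p = 0.00328). TARS1 went from 2.24, 2.60, 2.22 and 3.23 to 3.94, 3.25, 4.91 and 4.20 at T4 (1.50 ± 0.35, adjusted p = 0.0021) and differed by 0.92 ± 0.35 at T24 (adjusted p = 0.0446). For both genes the T4 groups did not overlap, and rabbit 2 was the lowest stimulated culture.

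IARS1 and WARS1 had the largest rises among the 16 cytosolic members at T24. IARS1 had levels of 2.41, 2.70, 2.26 and 2.90 in mock and 4.95, 4.87, 4.47 and 4.41 in stimulated T24 cultures (2.11 ± 0.24, 4.32-fold, adjusted p = 2.29e-07), after 0.74 ± 0.24 at T4 (adjusted p = 0.0312). The stimulated level of IARS1 was 4.61, 4.27, 5.14 and 4.73 at T4, close to that at T24, while its mock level was 4.37, 4.28, 3.45 and 3.69 at T4, so that the larger T24 effect went with a lower mock level. WARS1, the tryptophanyl enzyme, which is known to be induced by interferon gamma, had levels of 3.24, 3.49, 2.30 and 2.56 in mock and 4.82, 4.60, 4.95 and 4.48 in stimulated T24 cultures (1.81 ± 0.30, adjusted p = 3.55e-05). The mock level of WARS1 was lower at T24 than at T4, by a log2 difference of -1.45. At T4 the WARS1 difference of 0.89 ± 0.30 (adjusted p = 0.0357) lost its call with quantile normalization (0.65, adjusted p = 0.117), with each of the other 3 scalings tried (adjusted p = 0.0553 to 0.104) and without rabbit 1, 2 or 4 (adjusted p = 0.12, 0.137 and 0.0991). EPRS1, the joined glutamyl and prolyl enzyme, rose by 0.63 ± 0.18 at T4 (adjusted p = 0.0137) and by 1.61 ± 0.18 at T24 (adjusted p = 1.78e-07), an effect larger at T24 (interaction 0.98 ± 0.26, adjusted p = 0.00686). Its 2 probes were lower in mock cultures at T24 than at T4, with log2 differences of -1.06 and -0.96, so that the larger T24 effect went with a lower mock level. Its T4 call was lost with quantile normalization (0.36, adjusted p = 0.118) and without rabbit 4 (0.44, adjusted p = 0.162).

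Of the 12 mitochondrial synthetases, PARS2 and YARS2 rose and FARS2 and RARS2 fell at T4 (median 0.03), while FARS2, IARS2, NARS2, RARS2 and YARS2 rose and EARS2 fell at T24 (median 0.31). HARS2, LARS2, TARS2 and WARS2 were among those DE at neither time. The pairing of cytosolic and mitochondrial enzymes could be followed for 9 amino acids. At T4, 6 of the 9 cytosolic members rose against 1 mitochondrial member (YARS2), and the difference of the cytosolic member was the larger in 8 of 9 pairs. At T24, 7 cytosolic and 4 mitochondrial members rose, and the cytosolic difference was the larger in 6 of 9. The mitochondrial enzymes were dimmer, so that the classes were compared at unlike signal. In mock T4 cultures their median level, averaged over the rabbits, was 1.21 against 3.78 for the cytosolic enzymes.

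The asparaginyl pair had effects of opposite timing. NARS1 went from 3.0, 3.78, 3.37 and 4.02 to 5.27, 4.34, 6.18 and 5.23 at T4 (1.71 ± 0.31, 3.28-fold, adjusted p = 0.000208), and its levels at T24 were 2.82, 2.78, 2.48 and 3.80 in mock and 2.60, 2.73, 2.87 and 2.93 after PMA-Ionomycin (-0.19 ± 0.31, adjusted p = 0.768). NARS2 had T4 levels of 1.68, 1.12, 1.21 and 1.28 in mock and 1.67, 1.29, 1.86 and 2.15 after PMA-Ionomycin (0.42 ± 0.18, adjusted p = 0.115). At T24 NARS2 went from 0.83, 0.80, 1.23 and 1.34 to 3.66, 3.44, 3.33 and 3.31 (2.39 ± 0.18, 5.23-fold, adjusted p = 3.78e-10). The change of the effect with time was -1.90 ± 0.44 for NARS1 (adjusted p = 0.00245) and 1.96 ± 0.26 for NARS2 (adjusted p = 4.67e-06), each in the same direction in 4 of 4 rabbits.

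In the arginyl pair the mitochondrial enzyme reversed its direction. RARS2 went from 3.18, 2.79, 2.78 and 2.68 to 2.01, 1.38, 1.56 and 2.19 at T4 (-1.07 ± 0.19, adjusted p = 0.000152). At T24 the levels of RARS2 were 2.51, 3.04, 3.32 and 3.27 in mock and 4.13, 4.20, 4.05 and 3.96 in stimulated cultures (1.05 ± 0.19, adjusted p = 0.000106). The groups did not overlap at either time, and the interaction was 2.12 ± 0.27 (adjusted p = 2.8e-06). RARS1 rose at both, by 0.76 ± 0.12 (adjusted p = 5.74e-05) and 0.95 ± 0.12 (adjusted p = 1.25e-06). Its 5 probes taken singly differed by 0.35 to 1.53 at T24, and 4 of them were DE.

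FARS2, the mitochondrial phenylalanyl enzyme, had the same course as RARS2. Its levels were 2.14, 2.01, 2.21 and 2.26 in mock and 1.84, 0.83, 1.34 and 1.54 in stimulated T4 cultures (-0.77 ± 0.21, adjusted p = 0.00759), and 2.08, 2.05, 2.18 and 2.43 against 3.83, 3.49, 3.82 and 3.85 at T24 (1.56 ± 0.21, adjusted p = 1.68e-06). The fall at T4 was lost without rabbit 2 (-0.63, adjusted p = 0.0785), while the interaction of 2.33 ± 0.29 (adjusted p = 2.33e-06) lay between 2.23 and 2.43 whichever rabbit was left out. IARS2 differed by -0.27 ± 0.16 at T4 (adjusted p = 0.277) and rose at T24 from 3.01, 3.17, 3.36 and 3.05 to 4.58, 4.33, 4.32 and 4.31 (1.24 ± 0.16, adjusted p = 8.65e-07, interaction 1.51 ± 0.22 with adjusted p = 1.76e-05). YARS2 rose at both times, by 1.12 ± 0.14 and 1.50 ± 0.14. PARS2 rose at T4 (0.69 ± 0.18, adjusted p = 0.00598) and differed by -0.09 ± 0.18 at T24 (adjusted p = 0.818), with an interaction of -0.78 ± 0.25 (adjusted p = 0.0285) that was lost without rabbit 1, 4 or 5 (adjusted p = 0.22, 0.0641 and 0.0893). EARS2, close to background (well above it on 2 of the 4 stimulated T24 arrays), differed by 0.16 ± 0.11 at T4 (adjusted p = 0.419) and by -0.33 ± 0.11 at T24 (adjusted p = 0.0254), the T24 call being lost without rabbit 1, 2 or 4 (adjusted p = 0.0969, 0.141 and 0.0798). Its interaction of -0.48 was lost without any 1 of the rabbits.

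**Figure D4:**
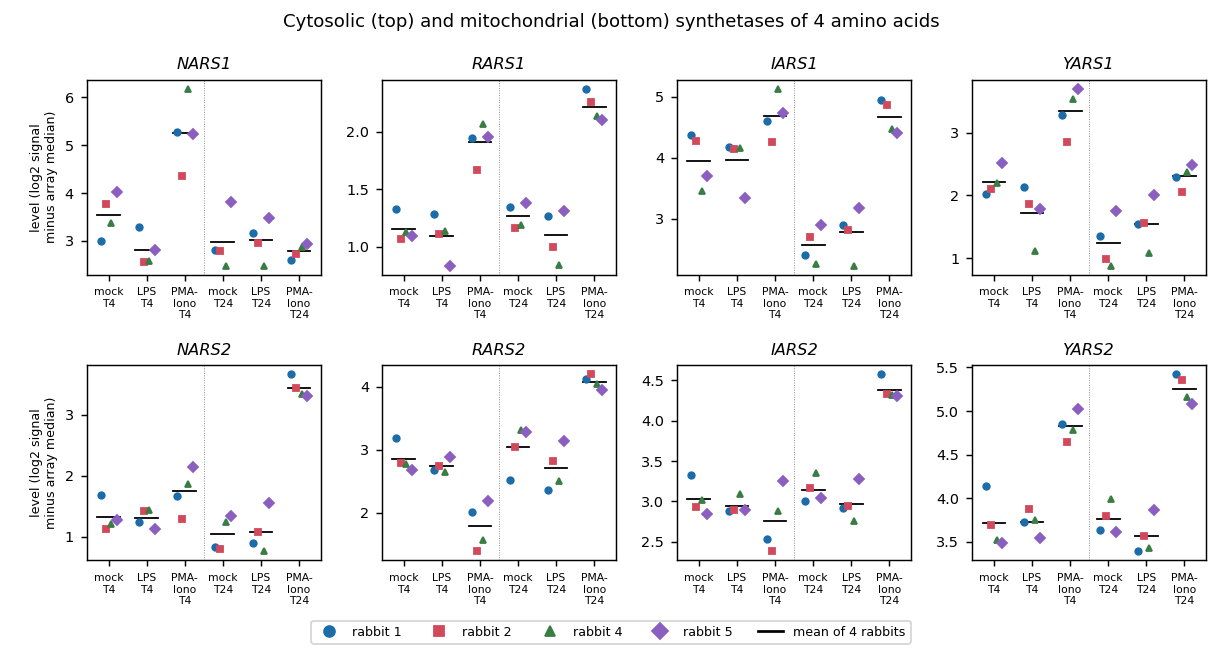
Levels (y axis, log2 signal minus the array median; the axes differ between genes) of cytosolic synthetases and their mitochondrial counterparts in the 6 groups (x axis), with 1 point per rabbit and a line at the mean. The stimulated cultures lie above mock for NARS1 at T4 and for NARS2 at T24, and RARS2 lies below mock at T4 and above it at T24.

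Across the set, the PMA-Ionomycin effect was more positive at T24 for 18 members and more negative for 4 (34.4% DE, beside 22.5% of all genes, 14.4% more positive and 8.15% more negative, and 37.3% of those detected, 24.2 and 13.1%). Among the 18 were EIF1B, EIF2A, EIF2AK2, EIF2B3, EIF2B4, EIF2D, EIF2S2, EIF2S3, EIF3K, EIF3M, EPRS1, FARS2, IARS1, IARS2, LARS1, NARS2 and RARS2, and the 4 were EARS2, EIF4E2, NARS1 and PARS2. The share of members was below that of all detected genes. Without rabbit 1, 8 more positive and 1 more negative effect passed, and without rabbit 2, 9 and 3. Of all 28863 genes, 4149 were more positive and 2353 more negative with the 4 rabbits, 2888 and 1636 without rabbit 1, and 3026 and 1802 without rabbit 2. Without the PMA-Ionomycin T4 array of rabbit 2 alone, 15 and 6 passed.

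LPS left few members DE. At T4, 1 member fell and none rose (1.56%, beside 1.03% of all genes, 0.0554% higher and 0.97% lower, and 1.96% of those detected, 0.0742 and 1.88%). At T24 limma called none, where 1.22% of all genes (0.637% higher, 0.582% lower) and 2.18% of those detected (1.15 and 1.03%) were DE. The gene that fell was EIF2B2, the beta subunit of eIF2B, from 2.42, 2.86, 2.86 and 2.40 to 2.09, 2.04, 1.03 and 1.90 (-0.87 ± 0.20, adjusted p = 0.0437), with no overlap and rabbit 4 the lowest. The call was lost whichever rabbit was left out, and without rabbit 2 or rabbit 4 no gene of the array was DE in this comparison. The values of the members were nevertheless mostly on 1 side, with 50 of 64 below mock. Their median was -0.21, against 0.06 for all genes and -0.08 for those detected. An unadjusted p under 0.05 was found for 25, all of them lower, beside 4014 of the 28863 genes and 3042 of the 14831 detected in either direction.

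With the rabbit as a block, 13 members fell after LPS at T4. Of all 28863 genes 86 were higher and 1144 lower under the block. The 13 were EIF2B2 and AARS1 (-1.11), EIF2AK1 (-0.85), EIF2B5 (-1.06), EIF3B (-0.80), EIF3D (-0.72), EIF4B (-0.62), EIF4E2 (-1.26), EIF6 (-1.05), FARS2 (-0.70), HARS1 (-1.16), MARS1 (-1.15) and QARS1 (-1.39), with adjusted p of 0.0198 to 0.0476 for these 12 under the block and of 0.0747 to 0.137 without it. Cytosolic synthetases had a median difference of -0.04, -0.56, -0.80 and -0.75 in the 4 rabbits, so that rabbit 1 was close to 0. With quantile normalization, the processed signal, normexp or the deposited log2 table, no member was DE, and the processed signal moved the median of all genes to 0.22. The monocyte genes CD14 (-1.55) and CSF1R (-1.44) also fell after LPS at T4, the summed signal of the 4 monocyte genes being 5.70 to 6.62 against 7.04 to 8.19 in mock on the log2 scale, and their part in the result was not tested.

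At T24, 41 of 64 members were above mock after LPS, with a median of 0.11 (0.16, 0.20, -0.10 and 0.18 in the 4 rabbits, and 0.0521 without rabbit 2), and an unadjusted p under 0.05 for 5 members and for 3129 of the 28863 genes. The LPS effect was more positive at T24 than at T4 for EIF2B2 (1.13 ± 0.28, adjusted p = 0.0395) and HARS1 (1.86 ± 0.45, adjusted p = 0.0339), which is 3.12% of the members beside 1.94% of all genes (1.7% more positive, 0.239% more negative) and 3.41% of those detected (3.03 and 0.381%). With the rabbit as a block 12 members passed, the others being AARS1, EIF2AK1, EIF2B4, EIF2B5, EIF3D, EIF4E2, EIF6, GARS1, MARS1 and QARS1, while of all 28863 genes 1472 were then more positive and 189 more negative. Without the block no member passed when any rabbit was left out. HARS1 had levels of 1.84, 2.20, 2.53 and 2.97 in mock and 1.80, 0.87, 0.50 and 1.73 in LPS cultures at T4, and of 2.26, 2.04, 1.71 and 2.65 against 3.02, 2.65, 2.63 and 3.18 at T24.

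Set against LPS instead of mock, PMA-Ionomycin left 39 members higher and 4 lower at T4 (67.2%). Of all genes 26.7% were DE there (17.7% higher, 9.04% lower) and of those detected 47.5% (32.7 and 14.8%). At T24, 30 members were higher and 5 lower (54.7%), beside 36.1% of all genes (23.6 and 12.5%) and 59.0% of those detected (38.9 and 20.1%). With the rabbit as a block EIF2AK1, EIF4G3, HARS2 and WARS2 were also higher at T4, WARS2 higher at T24, and EIF4E3 and HARS2 lower at T24. These comparisons share the PMA-Ionomycin arrays with those against mock. At T4 the cytosolic synthetases were higher in 15 of 16 cases, by a median of 1.57. EIF6 differed most, by 2.78 ± 0.35 (6.85-fold, adjusted p = 1.48e-06), since its LPS levels were 4.10, 3.19, 2.48 and 4.10. The 4 lower genes at T4 were EIF2AK2 (-1.73), EIF2AK3 (-0.58), EIF2AK4 (-0.78) and RARS2 (-0.95), and the 5 at T24 were EARS2 (-0.35), EIF2AK3 (at least 1.95-fold lower), EIF2AK4 (-1.24), EIF4E2 (-1.43) and QARS1 (-1.16). QARS1 was higher after PMA-Ionomycin than after LPS at T4 (1.57 ± 0.38, adjusted p = 0.00295) and lower at T24 (-1.16 ± 0.38, adjusted p = 0.0191). EIF4E2 had the same course, with 2.02 ± 0.36 at T4 (adjusted p = 0.000119).

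Cytosolic synthetases were lower in mock-stimulated PBMCs after the longer culture. Between mock-stimulated PBMCs of T24 and T4, 10 members were lower and 1 higher (17.2%, beside 12.5% of all genes, 7.41% higher and 5.13% lower, and 21.3% of those detected, 13.2 and 8.16%), and 8 of the 10 were cytosolic synthetases, namely AARS1, EPRS1, GARS1, IARS1, MARS1, SARS1, WARS1 and YARS1. The other two were EIF1 and EIF2S2. The 16 cytosolic enzymes had a median difference of -0.96, with 15 below 0, whereas none of the 12 mitochondrial enzymes was DE (median 0.07). With the rabbit as a block TARS1 (-0.96, adjusted p = 0.0465) and the mitochondrial WARS2 (-0.41, adjusted p = 0.0226) were also lower.

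AARS1, the alanyl enzyme, differed most, from 5.40, 5.97, 5.76 and 5.94 at T4 to 3.85, 3.96, 3.42 and 4.80 at T24 (-1.76 ± 0.33, 3.4-fold, adjusted p = 0.000557). WARS1 went from 4.47, 4.18, 4.54 and 4.22 to 3.24, 3.49, 2.30 and 2.56 (-1.45 ± 0.30, adjusted p = 0.00161). MARS1 went from 3.80, 4.17, 3.96 and 4.42 to 2.73, 2.61, 2.04 and 3.36 (-1.40 ± 0.36, adjusted p = 0.00965), a call that was lost without rabbit 2 (adjusted p = 0.0739). None of these values overlapped between the times. The member that was higher at T24 was EIF4EBP2, with 0.52, 0.24, 0.34 and 0.34 at T4 and 0.80, 0.57, 0.91 and 0.89 at T24 (0.43 ± 0.12, adjusted p = 0.0172), and this call was lost without rabbit 2, 4 or 5 (adjusted p = 0.0524, 0.08 and 0.134). The monocyte genes CD14 (1.36), CD68 (2.72) and CSF1R (2.92) and the neutrophil genes CAMP (2.16) and MPO (1.10) were higher in mock cultures at T24, the summed monocyte signal being 8.34 to 9.62 against 7.04 to 8.19 at T4, and the platelet genes ITGA2B (-1.79) and GP9 (-1.37) were lower. Their part in the result was not tested.

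**Figure D5:**
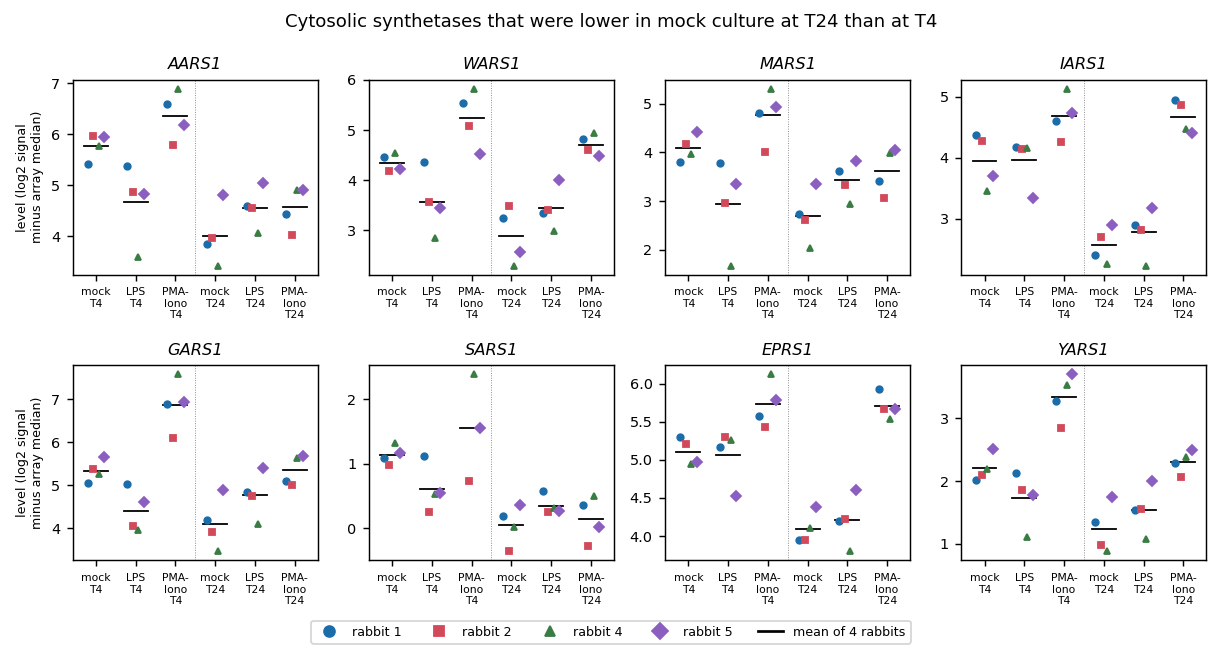
Levels (y axis, log2 signal minus the array median; the axes differ between genes) of cytosolic synthetases in the 6 groups (x axis), with 1 point per rabbit and a line at the mean. Mock-stimulated cultures were lower at T24 than at T4, for AARS1 at 3.42 to 4.80 against 5.40 to 5.97.

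Genes that work beside the members were read from a list of 37 genes found by name. Of these, 23 rose and 4 fell after PMA-Ionomycin at T4 (73.0% DE), beside 22.8% of all genes and 40.1% of those detected. At T24, 23 rose and 5 fell (75.7%), beside 33.6% of all genes and 55.3% of those detected. The scaffold proteins of the multisynthetase complex rose at both times, AIMP1 by 1.50 and 2.02, AIMP2 by 1.34 and 0.68 and EEF1E1 by 2.05 and 2.16. So did the termination and recycling factors, with ABCE1 at 1.24 and 1.68, ETF1 at 0.75 and 1.39 and GSPT1 at 1.53 and 0.99. Of the synthetases that are not members, FARSB, the beta subunit of the cytosolic phenylalanyl enzyme, rose by 0.91 and 1.52. The valyl enzyme VARS, kept out of the members only because its name came from the list of added genes, rose by 0.91 ± 0.18 at T4 and 3.62 ± 0.18 at T24, which was above the largest rise among the members. TARS3 was DE at neither time.

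The genes of the amino acid response, of which ATF4 is the best known regulator and which hold amino acid transporters and serine synthesis enzymes, rose in 8 of 10 cases at T4 and in 7 at T24, when 1 fell (SLC3A2, -0.95). That was 80.0% DE at each time, beside 22.8 and 33.6% of all genes and 40.1 and 55.3% of those detected. ATF4 itself rose by 1.42 and 0.86, the transporters SLC7A1 by 2.29 and 1.14 and SLC7A5 by 1.65 and 2.14, and the serine enzyme PSAT1 by 1.03 and 3.28. ATF3 rose by 3.56 at T4 and differed by -0.06 at T24. In mock cultures 7 of the 10 fell from T4 to T24 (70.0% DE, beside 12.5% of all genes and 21.3% of those detected), PSAT1 by a log2 difference of -3.75 and SLC7A5 of -2.91. MYC, a transcription factor known to act on many translation genes, rose by 3.23 at T4 and 1.61 at T24.

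PDCD4, which holds back the helicase eIF4A, fell by 1.20 on the log2 scale at T4 and 1.17 at T24, and EEF2K, the kinase that inhibits elongation, fell by 0.47 and 2.22. EEF2K also fell after LPS at T4 (-0.74, adjusted p = 0.0391) and rose in mock cultures from T4 to T24 (1.73). The other elongation gene, EEF1B2, a subunit of the exchange factor of eEF1A, rose by 0.62 and 1.65. Of the other 4 initiation partners, DENR rose by 0.79 and 1.61. PAIP1, which binds poly(A)-binding protein, rose by 0.95 at T24 and its inhibitory relative PAIP2 fell by 0.44, and MKNK1, a kinase of eIF4E, fell by 0.75 at T4 (adjusted p = 0.0499). Of the 5 genes of mitochondrial translation, GFM1, MTFMT and TUFM rose at T4 and MTIF3, the mitochondrial initiation factor, fell (-0.74), while GFM1, GFM2, MTFMT and TUFM rose at T24. Of the 5 genes of the mTOR arm, TSC1 rose at T4 (0.63) and DDIT4 fell at T24 (-1.80).

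Cell type markers changed beside these results. After PMA-Ionomycin, 2 of 4 B cell genes fell at T4, CD79B (-3.93) and MS4A1 (-1.70), and 2 at T24, CD22 (-0.59) and MS4A1 (-2.63), and the summed signal of the 4 on the log2 scale was 4.11 to 5.32 against 7.77 to 9.04 in mock at T4, and 6.66 to 7.83 against 7.02 to 9.28 at T24. CD14 and CSF1R fell at both times and CD68 at T24, with the summed monocyte signal at 5.03 to 5.63 at T4 and 5.82 to 6.81 at T24. The genes CD3D, CD3E and CD3G and the NK cell genes of the list were not found by name, so that NK cells were not followed. Of the 7 T cell genes found, CD28 rose at T4 (1.29), and CD5 rose (1.08) and CD4 (-0.66) and CD247 (-0.40) fell at T24, and the summed signal, at 3.80 to 4.28 at T4 and 3.67 to 4.01 at T24, overlapped that of mock, at 3.73 to 4.40 and 3.29 to 3.99. The neutrophil genes CAMP and MPO fell at T24 both after PMA-Ionomycin (-4.02 and -1.58) and after LPS (-1.92 and -1.63), and CAMP also fell after PMA-Ionomycin at T4 (-1.30), as did 2 of 3 platelet genes, ITGA2B (-1.60) and GP9 (-0.89). The part of these changes in the results on the members was not tested.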

How the data were processed

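PBMCs of 4 rabbits in 6 groups were measured on 24 one-colour Agilent arrays (Agilent Feature Extraction 10.7.3.1 per the labels). The authors deposited scanner files with median, mean and processed spot intensity, not yet scaled, and 1 log2 matrix that equals the log2 median signal minus the array mean (largest difference 5e-09). The median signal of an array was 59 to 102.5. Here log2 median signals were centred on the array median, control spots (leaving 61657 spots, 42089 probes) and 280 to 370 outlier spots per array were left out, and spots were averaged per probe and probes per gene. Of the probes, 11506 were named by RefSeq accession, 8929 by gene number, 460 through the study's list of added genes and 320 by the file, with symbols of the RefSeq annotation of mOryCun1.1; 20874 had no symbol. Of 86 symbols of the naming rule in that annotation, 22 matched no probe through the file, accession or gene number, among them EIF4A1, EIF5A, EIF4EBP1 and CARS1. The probe of the valyl enzyme was named only through the list of added genes, so that it is no member and is given with the related genes. EIF2C2 of the files is an Argonaute gene and was not included.

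Groups were compared with limma 3.58.1 in R 4.3.3, fitting a mean per group, without a block as in the study's methods, and Benjamini-Hochberg adjustment. Other steps ran in Python 3.11.15 (pandas 2.3.3, numpy 2.4.6, matplotlib 3.10.9, scipy 1.17.1). Rabbit numbers mark the same animals: after group means were subtracted, the 60 pairs of arrays from 1 rabbit correlated at a median r of 0.228, the 180 other pairs at -0.0746. On simulated data with 200 of 28749 genes changed by 4 standard deviations, 87% were recovered for PMA-Ionomycin at T4 and 91% at T24, with 4.4 and 0.546% of calls false. The highest correlation between arrays was 0.9943, and no array was a duplicate.

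The members and lists were chosen with earlier results of these data known. Members named with values were the 8 largest rises and 5 largest falls after PMA-Ionomycin at each time with the same direction in 4 of 4 rabbits, up to 5 called after LPS, the 5 largest interactions and the 3 largest changes in mock cultures each way, and a list by role. EIF1, EIF1B, EIF3E, EIF3I, EIF3M, EIF5B, HARS1, QARS1, RARS1, WARS2, YARS2 and, under the rabbit block, the genes listed for LPS were chosen after their values were seen. Alternatives were other scalings and background corrections, the deposited table, filters, blocks, array weights, single probes and leaving out each rabbit. Leaving out the PMA-Ionomycin T4 array of rabbit 2 was chosen after seeing the data. Promoter motifs were not analysed here, and some members that enter the counts are not reported by name. The number of arrays limits the precision, and each rabbit contributed 1 culture per group.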

Additional observations from a re-analysis of the deposited data

Results flagged for a closer look

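The PMA-Ionomycin effect differed between T4 and T24, by the interaction in limma, for these members named by the rule. The change from T4 to T24 was -0.48 for EARS2, 1.58 for EIF2A, 1.44 for EIF2AK2, 0.98 for EIF2B3, 0.83 for EIF2S2, 0.85 for EIF2S3, -1.65 for EIF4E2, 0.98 for EPRS1, 2.33 for FARS2, 1.37 for IARS1, 1.51 for IARS2, -1.90 for NARS1, 1.96 for NARS2, -0.78 for PARS2 and 2.12 for RARS2. FARS2 and RARS2 changed direction between the times. The LPS effect differed between times for EIF2B2 (1.13, adjusted p = 0.0395) and HARS1 (1.86, adjusted p = 0.0339), and neither passed when any rabbit was left out.

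In 13 of 198 groups of 4 levels (6.57%) 1 rabbit lay far from the other 3 by Dixon's criterion, of which chance gives about 1 in 20. The levels were 2.67 for EIF2AK2 in rabbit 1 and 1.87 for EIF3B in rabbit 1 among mock T4 cultures, and 4.14 for EIF4E in rabbit 5 among mock T24 cultures. After LPS at T4 they were 0.51 for EIF2AK3, 4.52 for EPRS1 and 3.33 for IARS1, all in rabbit 5, and 3.1 for IARS2 in rabbit 4, and at T24 0.53 for EIF4EBP2 in rabbit 4. After PMA-Ionomycin they were 7.59 for EIF2S2 in rabbit 4 at T4, and at T24 1.35 for EIF2AK2 and 3.49 for FARS2 in rabbit 2 and 4.26 for EIF2B3 and 4.58 for IARS2 in rabbit 1.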

How the results depend on the processing

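Over up to 15 alternatives per comparison and the single probes, 106 counts of members called stayed close to the main count and 32 moved. Of the medians, also taken within slides, 138 stayed within the standard deviation between rabbits and 18 moved. After LPS at T4, where 1 member was called, most alternatives gave no call. Counted per probe, 77 of 150 probes were DE after PMA-Ionomycin at T4 and 84 at T24, 3 after LPS at T4, 101 and 78 for PMA-Ionomycin against LPS, 39 and 6 for the changes of the PMA-Ionomycin and LPS effects with time, and 23 in mock cultures. In that order, 23.8, 34.6, 0.991, 27.5, 37.2, 23.6, 2.46 and 13.8% of all 42089 probes were DE, and many probes of a gene overlap. The median after PMA-Ionomycin at T24 (0.77) was 0.39 with quantile normalization, 0.50 with the processed signal, 0.34 with normexp and 0.62 with the deposited log2 table, 0.63, 0.64 and 0.95 within slides 1, 2 and 3, and 0.65 to 0.80 leaving out a rabbit. Against LPS the main median was 0.77 at T4 and 0.44 at T24. It was 0.39 at T4 and 0.17 at T24 with quantile normalization, 0.0855 at T24 with normexp and 0.93 at T24 within slide 3. In mock cultures the median (-0.08) was -0.20 under quantile normalization and also from the processed signal.

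After LPS at T4 the count was 0 with quantile normalization, the processed signal, normexp, the deposited log2 table or only the arrays compared, 0 to 0 leaving out a rabbit, 13 with the replicate block (rabbit) and 11 with array weights (142 of all genes higher and 897 lower), and the median within slide 1 was -0.38. At T24 the median was 0.35 within slide 2 and -0.0583 within slide 3. For the change of the LPS effect the count was 0 with the processed signal, the deposited log2 table or only the arrays compared, and 0 to 0 leaving out a rabbit. It was 7 without dim probes (735 of 17488 genes more positive and 86 more negative) and 12 with the replicate block. With slide as a block it was 5 (547 of all genes more positive and 87 more negative), and with array weights 17 (1721 and 460). The median within slide 3 was 0.12. For the change of the PMA-Ionomycin effect it was 9 to 22 leaving out a rabbit, and for mock cultures 8 to 11. The rabbit block changed no other call than those named in the text.

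Signs were checked for the 33 members named by the rule, and within slides only where the main difference was called. Differences that turned in sign were not called in the main analysis, except that of EIF2AK4 at T24 within slide 1 (0.10). They were those of EIF2AK1 at T4 without the PMA-Ionomycin array of rabbit 2 (0.0014; -0.32 to -0.02 leaving out a rabbit) and at T24 with array weights (0.0255), EIF2AK2 at T24 with the processed signal (-0.0090; -0.0763 to 0.37 leaving out a rabbit) and NARS1 at T24 without rabbit 5 (0.0374; lowest -0.38). The cause was not tested. The processed signal moved the median of all genes to -0.16 and -0.26 after PMA-Ionomycin at T4 and T24 and to 0.22 after LPS at T4 (that of the members to 0.37, 0.50 and -0.07), and 24 members then rose and 6 fell at T4 and 28 and 7 at T24. Of all genes, 3881 rose and 2698 fell at T4 and 6389 and 3316 at T24, against 3294 and 3707, and 4677 and 5417, with the processed signal. Signal over background limits EIF4E3, EIF4ENIF1 and LARS2, which were well above it on fewer than 12 arrays.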
